A study of Mus musculus with 30 samples.

Results

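The chromatin described here is the unstressed baseline of the mouse ventral hippocampus: the 8 libraries of handled mice taken from the home cage, out of 30 ATAC-seq libraries in the study. These 8 were chosen by their labels alone, as the libraries of the Handling treatment at the 0 min time point. Handled mice were picked up gently by the tail, in the way used ahead of restraint, in place of the chronic restraint itself. They then lived singly for 24 h and were collected from the home cage without any acute stress. The light cycle was reversed, so that the study worked in the active phase of the mice. The group held 4 females and 4 males, a female and a male in each of 4 batches, and each library came from the ventral hippocampus of a separate animal, numbered as in the labels. Strain and age were not given in the sources used here. The other groups of the study (handled mice 45 min after the start of acute restraint, and mice restrained daily for 10 days at 0 min or 45 min) enter no value below.

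In ATAC-seq a transposase inserts adapters into DNA that is not wrapped on nucleosomes or otherwise hidden, so the number of sequenced fragments over a stretch of DNA reads how open it was. Promoters of active genes are held open by transcription factors and the transcription machinery, while the genes of other lineages are packed away, many of them by Polycomb proteins. The hippocampus is a mixture of excitatory principal neurons, inhibitory interneurons, astrocytes, oligodendrocytes and their precursors, microglia and vessel cells, and a bulk library adds them all up. In such a sum, few cells with an open site and many cells with a weakly open site cannot be told apart.

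The count table gave whole numbers for 257149 peak regions on the mouse build GRCm38, and the 8 libraries held 28659410 to 46120049 counts in them. Values are given as CPM (counts scaled to a common library size, with TMM factors over the 8 libraries) and as CPM per kb of peak width, which allows peaks of different width to be compared. The level of a gene is the CPM per kb of the densest peak within 1 kb of one of its starts (its start peak), and 0 where no peak lay there. For 4395 of 21887 protein-coding genes no start was annotated, and either end of the gene counted as a start throughout. A start peak of such a gene can therefore lie at its far end. The median peak was 561 bp wide and held a mean of 55.75 counts per library. Library pairs without animal 45 had Spearman correlations over peaks of 0.926 to 0.938, and the 7 pairs with animal 45, a female of batch 4, had 0.853 to 0.897. Animal 45 also had the lowest TMM factor (0.894, against 0.992 to 1.04 in the others) and the highest share of counts in peaks at gene starts (40.4%, against 35.1% to 37.2%). Its part in the levels below was not tested beyond leaving it out. Differences between location classes are given with and without it, and the means, SDs and list medians below include it.

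Most CpG-rich gene starts lay in peaks and most CpG-poor ones did not, and 4 promoters show both cases of each kind. They are the 300 bases from 250 before to 50 after a start, taken from RefSeq on GRCm38.p6 and written 5′ to 3′ along the gene, with each CpG dinucleotide in capitals. Id4 (chr13:48260866-48261165, plus strand), an inhibitor of DNA binding found in astrocytes and neural progenitors, and Hoxd13 (chr2:74667975-74668274, plus strand), a patterning gene of limb and tail, have dense CpG islands. Neurod6 (chr6:55681214-55681513, minus strand), a transcription factor of excitatory neurons, and Alb (chr5:90460620-90460919, plus strand), the serum albumin gene of liver, are both poor in CpG. Of these 4 windows, those of Id4 and Neurod6 lay in a peak and those of Hoxd13 and Alb did not.
Id4: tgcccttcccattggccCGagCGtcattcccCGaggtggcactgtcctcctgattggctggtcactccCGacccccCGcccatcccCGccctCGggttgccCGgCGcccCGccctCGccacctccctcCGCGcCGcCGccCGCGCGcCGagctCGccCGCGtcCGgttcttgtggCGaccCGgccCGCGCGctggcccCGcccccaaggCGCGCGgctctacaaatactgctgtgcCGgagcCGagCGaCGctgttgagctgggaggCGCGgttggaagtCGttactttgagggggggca
Hoxd13: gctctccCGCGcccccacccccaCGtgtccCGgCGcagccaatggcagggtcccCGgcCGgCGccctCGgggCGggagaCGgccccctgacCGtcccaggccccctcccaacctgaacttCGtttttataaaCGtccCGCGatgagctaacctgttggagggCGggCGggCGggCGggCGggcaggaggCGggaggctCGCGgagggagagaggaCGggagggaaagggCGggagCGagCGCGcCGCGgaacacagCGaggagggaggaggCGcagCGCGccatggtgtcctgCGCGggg
Neurod6: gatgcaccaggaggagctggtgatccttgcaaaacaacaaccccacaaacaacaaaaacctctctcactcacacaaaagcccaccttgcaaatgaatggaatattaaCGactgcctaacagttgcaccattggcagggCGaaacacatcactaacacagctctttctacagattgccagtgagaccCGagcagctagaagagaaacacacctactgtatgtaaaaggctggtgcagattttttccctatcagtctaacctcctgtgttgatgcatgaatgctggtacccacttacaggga
Alb: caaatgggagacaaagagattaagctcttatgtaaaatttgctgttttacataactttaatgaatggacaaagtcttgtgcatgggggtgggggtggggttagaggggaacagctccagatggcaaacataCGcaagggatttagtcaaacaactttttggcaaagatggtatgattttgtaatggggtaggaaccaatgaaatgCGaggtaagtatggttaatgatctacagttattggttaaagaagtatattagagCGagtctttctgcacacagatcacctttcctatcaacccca

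The Id4 window held 39 CpG and the Hoxd13 window 37, with GC contents of 73.3% and 74.3%. Id4 had a start peak (chr13:48260425-48262753) of 8.20 ± 1.81 CPM per kb (SD, n = 8), whereas no peak lay at the start of Hoxd13 or anywhere in that gene. The Neurod6 and Alb windows held 3 CpG each. The Neurod6 window lay in a peak (chr6:55680891-55681927) of 5.86 ± 1.77 CPM per kb, and Alb had no peak. In the libraries, Neurod6 ran from 3.91 CPM per kb in animal 8 to 9.64 in animal 45. Both of these pairs are nearly matched in CpG number and differ in state.

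Over all 21263 promoter windows of 17492 protein-coding genes, the share lying in a peak was higher at each step in the number of CpG. It was 12.8% of the 3841 windows with 0 to 2 CpG, 35.8% with 3 to 5, 63.7% with 6 to 10, 91.2% with 11 to 20, 96.6% with 21 to 30 and 98.3% of the 2974 windows with over 30. The median window outside peaks had 3 CpG and a GC content of 45.7%, and the median window among the 10% in peaks with the highest level (11.1 to 69.0 CPM per kb) had 26 CpG and 65.0%. Motifs were searched as letters on both strands, so a match is a description of the window and not a bound site. GGGCGG, the GC box bound by the Sp1 family, was present in 11.4% of windows outside peaks, 47.7% of the 25% in peaks with the lowest level and 78.1% of the 10% with the highest, against 46.2% of all windows. TATAAA, the core of the TATA box, took the opposite course, with 25.3%, 9.21% and 4.03%, against 12.6% of all. CCAAT was present in 40.3% of windows outside peaks, 30.5% of the 25% with the lowest level and 51.1% of the 10% with the highest, against 38.2% of all. Each GGGCGG holds a CpG, so its shares and the CpG counts are not separate measures. Starts in the CpG-rich range with no peak were few: of 11637 windows with over 10 CpG, 94.9% lay in a peak and 588 did not. All 16 Hox windows in that range were among those 588, as were 11 of the 12 windows of a list of developmental regulators of other tissues, described below.

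**Figure D1:**
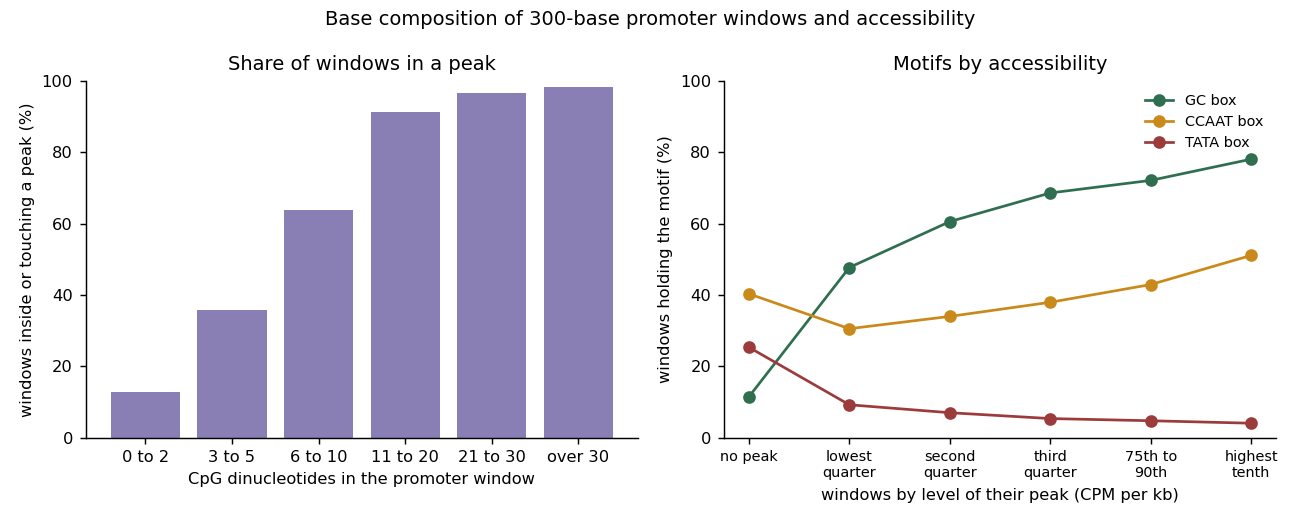
Left, percent of 300-base promoter windows that overlap a peak (y axis) by the number of CpG dinucleotides in the window (x axis). Right, percent of windows that hold a motif (y axis) by the accessibility of their peak, from no peak to the 10% with the highest level (x axis), where the GC box goes from 11.4% to 78.1% and the TATA box from 25.3% to 4.03%.

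Gene starts were the most accessible class of peaks and held far more of the counts than their number would give. The 21017 peaks within 1 kb of a protein-coding start were 8.17% of all peaks and held 36.5% ± 1.75 of the counts (SD, n = 8), with a median width of 1620 bp. Peaks elsewhere inside genes were 62.8% of peaks and held 44.3% ± 1.69 of the counts. Peaks outside genes were smaller classes: 11.1% of peaks lay within 10 kb of a gene, 12.4% at 10 to 100 kb and 5.55% over 100 kb away.

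The median peak at a gene start had 4.23 ± 0.31 CPM per kb, from 3.98 in animal 29 to 4.95 in animal 45. The median peak inside a gene had 2.68 ± 0.11, within 10 kb of a gene 2.65 ± 0.15, at 10 to 100 kb 2.91 ± 0.11 and over 100 kb away 3.20 ± 0.47. The last class ranged from 2.79 to 3.16 in 7 libraries and stood at 4.34 in animal 45. Against the peaks over 100 kb away, gene starts were higher by 0.41 ± 0.11 on the log2 scale in 8 of 8 libraries (exact sign-flip test over libraries, two-sided, p = 0.0078, the smallest that 8 libraries allow, and 0.010 adjusted over 4 classes). Peaks inside genes were lower by a log2 difference of -0.25 ± 0.25 and those within 10 kb by -0.26 ± 0.27, each in 8 of 8 libraries (same exact test, adjusted p = 0.010 for both). Peaks at 10 to 100 kb differed by -0.13 ± 0.14 and were lower in 7 of 8 libraries (exact test, adjusted p = 0.016). All 4 classes (100%) passed this test. Without animal 45 the 4 differences were 0.44, -0.16, -0.17 and -0.08 (exact test, adjusted p = 0.021, 0.021, 0.021 and 0.031). The -0.25, -0.26 and -0.13 of the full set were thus over 1.5 times those without this library.

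The lead of gene starts depended on the width of the peaks and on the window that defines a start. Among peaks of 500 bp to under 1000 bp, gene starts were lower than the remote class by a log2 difference of -0.20 ± 0.20 (exact sign-flip test, two-sided, n = 8, adjusted p = 0.0078). With a start window of 5 kb the difference was -0.14 ± 0.26 (exact test, adjusted p = 0.078). In peaks under 500 bp gene starts also had the lower median, 2.70 CPM per kb against 3.13 in remote peaks. From 1000 bp upwards the medians stood the other way. Gene starts of 1000 bp to under 2000 bp had a median of 4.52 CPM per kb against 3.51 in remote peaks, and those of 2000 bp to under 5000 bp had 6.11 against 3.98. Counted per peak and not per kb, the difference of peaks inside genes from the remote class was 0.17 ± 0.20 in log2 (exact test, adjusted p = 0.063). Remote peaks were narrower, with a median of 409 bp against 551 bp.

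Over all peaks, the classes from 1000 bp upwards had higher medians the wider they were. From the 112092 peaks under 500 bp, with a median of 2.68 ± 0.07 CPM per kb, the median dipped to 2.58 ± 0.11 from 500 bp. It was 2.92 ± 0.06 from 1000 bp, 3.67 ± 0.11 from 2000 bp, 4.40 ± 0.17 from 5000 bp and 5.24 ± 0.23 in the 1522 peaks of 10000 bp or more. In log2 against the narrowest class, the steps were -0.06, 0.12, 0.45, 0.71 and 0.96, each with the same sign in 8 of 8 libraries (exact sign-flip test over libraries, two-sided, adjusted p = 0.0078 for all 5, or 100%). The widest class was 0.59% of peaks and held 14.04% ± 0.21 of the counts, and 70.1% of it lay at gene starts. Within gene starts the order was not kept, with medians of 6.11 CPM per kb from 2000 bp, 5.37 from 5000 bp and 5.70 from 10000 bp. Among peaks over 100 kb from a gene, the dip from 500 bp to under 1000 bp was not seen (log2 difference 0.0092 ± 0.068, exact test, adjusted p = 0.72). Peaks were called on the same kind of signal that is counted here, so width and density are not independent measures.

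**Figure D2:**
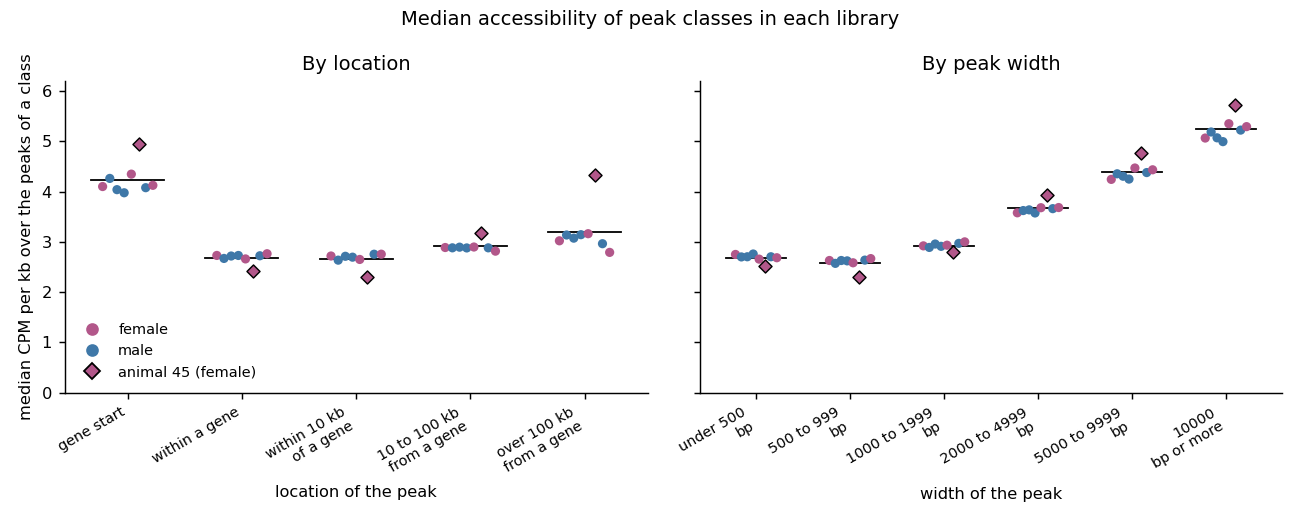
Median CPM per kb (y axis) over the peaks of each location class (left) and each width class (right), 1 point per library, with females and males in different colours, animal 45 as a diamond and the mean over the 8 libraries as a line. Animal 45 stands at 4.34 in the class over 100 kb from a gene, where the other 7 libraries lie between 2.79 and 3.16.

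Counts were concentrated in few, mostly wide regions. The 257 peaks of highest mean CPM (0.1% of all) held 4.97% ± 0.08 of the counts, the top 1% held 20.5% ± 0.50 and the top 10% held 57.3% ± 1.55, while the 50% of peaks with the lowest CPM held 12.2% ± 0.70. Of the top 1%, 77.3% lay at gene starts. The median width was 24862 bp in the top 0.1% and 10655 bp in the top 1%, against 561 bp over all peaks. These shares are not corrected for width. In CPM per kb the range was narrow for most peaks, with 2.05 at the 5th percentile, 2.73 at the median, 5.47 at the 95th and 9.50 at the 99th, and a single maximum of 1013.

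The highest peaks by CPM mostly covered groups of several coding genes. The highest of all (chr8:70741759-70815332, 73574 bp) spans Pik3r2, a subunit of phosphoinositide 3-kinase, Rab3a, a small GTPase of synaptic vesicles, Pde4c, Mast3 and 3 other coding genes. It held 579 CPM in the lowest library, a median of 620 and 726 in the highest, which was animal 45. The second (chr10:80122951-80187258, 64308 bp) spans Midn, Stk11, Cirbp, a cold-inducible RNA-binding protein, and 4 more genes, and held 561 to 704 CPM with a median of 609. Taking at most 1 peak per nearest gene, the next were regions at Akt1s1 (431 ± 40.0 CPM) and Pip5k1c (389 ± 25.1), and, further down, one over Acadvl and Dlg4, the gene of the postsynaptic scaffold PSD-95 (361 ± 39.1). The Rplp2 region held 341 ± 14.3 CPM. In all 6 of these gene-covering peaks animal 45 was the highest library.

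The other 2 of the top 8 were of another kind, narrow and without a coding gene. A 2361 bp peak near the start of chromosome 9 (chr9:3022301-3024661) held 218 CPM in animal 45 and 345 to 482 in the other libraries. A 781 bp peak on chromosome 14 (chr14:124801514-124802294), 123828 bp from Fgf14, held 191 CPM in animal 45 and 372 to 431 elsewhere. In both, animal 45 was the lowest library and did not overlap the rest.

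**Figure D3:**
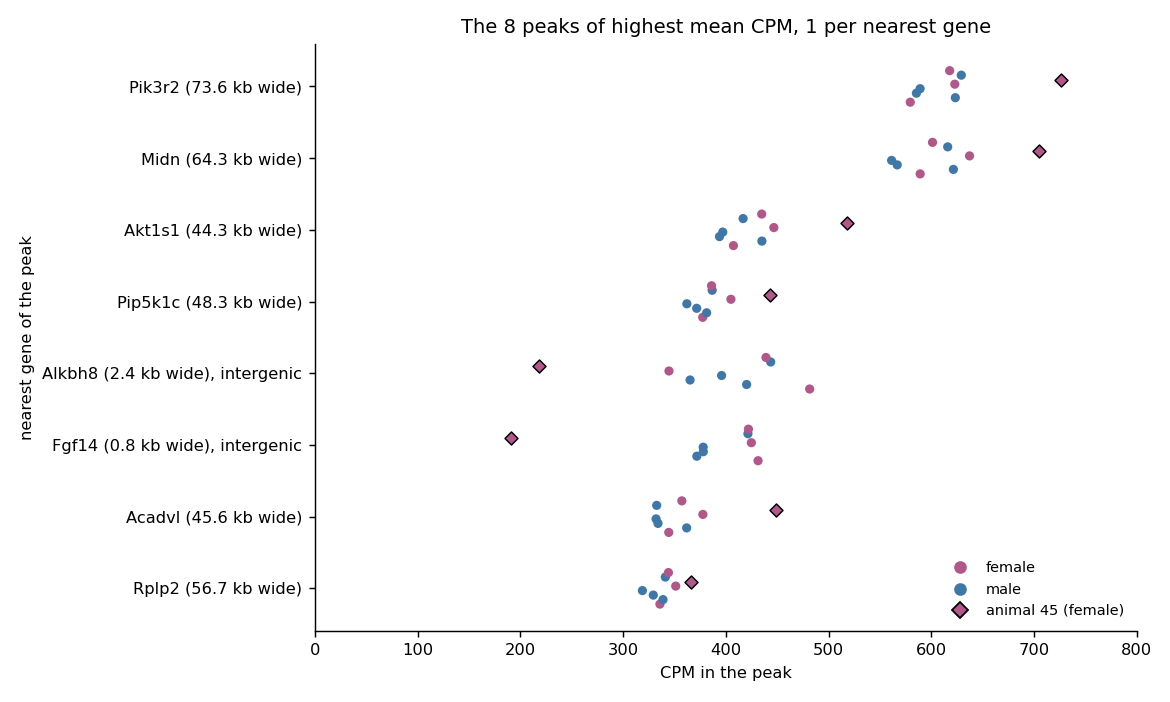
CPM (x axis) of the 8 peaks with the highest mean CPM, at most 1 per nearest gene, named by their nearest gene with their width (y axis), 1 point per library and animal 45 as a diamond. Animal 45 is the highest library in the 6 wide peaks over genes and the lowest in the 2 narrow intergenic ones.

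By CPM per kb the top of the list was made of such narrow peaks. The densest of all was 107 bp wide (chr12:3109815-3109921, 137507 bp from Rab10) and reached 1013 ± 170 CPM per kb, with 72.2 CPM in animal 45 and 102 to 136 in the others. The second (chr1:24612851-24613093) had 542 ± 143 CPM per kb and was highest in animal 40, at 205 CPM against 99.8 to 149 elsewhere. Of the 100 densest peaks, 39 lay over 100 kb from any protein-coding gene and 8 at a gene start, against 8.17% of all peaks at gene starts, and their median width was 453 bp. A run of 25 of them lay at the start of chromosome 9 (chr9:3000571-3037911) and 20 in a stretch of chromosome 6 (chr6:47658873-47764691). The chromosome 9 run summed to 2498 ± 515 CPM, with 1433 in animal 45 and 2226 to 3077 in the others. The chromosome 6 run summed to 1913 ± 176 CPM and was highest in animal 45, at 2248 against 1711 to 2067. The remaining 55 summed to 2062 CPM in animal 45 and 3364 to 3971 elsewhere. The sequence content of these regions, repeats included, was not analysed here.

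At the bottom were very short regions. An 11 bp region on chromosome 17 (chr17:39848881-39848891) and a 22 bp region on chromosome 2 (chr2:98665251-98665272) held 0 counts in all 8 libraries, which allows up to 3 counts, or 0.0664 to 0.102 CPM by library. A 21 bp region beside the densest peak on chromosome 12 (chr12:3110151-3110171) and a 37 bp region in Chl1, a neural adhesion molecule, held 0.13 and 0.50 counts per library. Regions of 49 bp near Pex2 and 29 bp near Rpusd4 held 1.88 and 2.25 counts. These means are under 3 counts, the bound for a single library with 0 counts. The Rpusd4 region still held counts in all 8 libraries, so it was low and not empty. The lowest by CPM per kb that held over 3 counts was a 376 bp peak near Tamm41, with 0.55 ± 0.16 CPM.

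Of 21887 protein-coding genes, 15408 (70.4%) had a start peak, with a median level of 5.93 CPM per kb (5th percentile 2.59, 95th 13.5). The median over all genes, those at 0 included, was 4.54. For 3912 genes the start peak was shared with the start of another gene, so their level is not theirs alone. Among the 6479 genes with no start peak were 1085 of 1110 genes named Olfr (odorant receptors), 351 of 355 named Vmn (vomeronasal receptors) and 1034 of 1346 with a Gm placeholder name. No peak at all was found in 5219 genes or within 1 kb of them.

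The highest gene starts fell into 2 kinds. Of the 12 with the highest level, 5 belonged to predicted genes in the chromosome 6 run described above: Gm40363 at 143 ± 22.1 CPM per kb, Gm36327 and Gm40365 with a shared peak at 69.0 ± 4.47, Gm40367 at 68.4 ± 5.76 and Gm40364 at 30.7 ± 2.04. The others had start peaks of 1283 to 3955 bp. Tsga10, a testis-named gene, had 37.8 ± 8.83 CPM per kb, from 32.2 to 39.7 in 7 libraries and 58.9 in animal 45. Gsk3b, the kinase inhibited downstream of insulin and Wnt signals, had 36.6 ± 9.09, from 31.5 to 35.9 in 7 libraries and 58.7 in animal 45. Hsd17b12, an enzyme of fatty acid elongation, had 31.2 ± 7.75, Map3k3, a kinase of stress signalling, had 30.7 ± 7.52, LOC108167694 had 31.5 ± 8.02, and Cdca2 and Kctd9 shared a peak at 30.0 ± 6.33. Animal 45 was the highest library at each of these 7 genes.

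Along whole genes the order was different. Summed over the gene and 1 kb on either side, per kb, the 8 highest of 4945 genes of 50 kb or more were Shank1 (7.14 ± 0.60 CPM per kb of gene), Camk2a (6.36 ± 0.36), Elfn2 (6.27 ± 0.31), Adgrb1 (5.81 ± 0.21), Ptprs (5.67 ± 0.26), Srcin1 (5.49 ± 0.27), Nfix (5.42 ± 0.24) and Baiap2 (5.32 ± 0.25). The median of these long genes was 0.38. Shank1 and Baiap2 encode proteins of the postsynaptic density, Camk2a the main kinase of excitatory synapses, and Ptprs and Adgrb1 adhesion receptors of synapses. Camk2a, Adgrb1 and Ptprs had peaks counted as start peaks that themselves ran over 39963 to 46259 bp. That of Adgrb1 (chr15:74555584-74596425) reached past the upper end of the gene (chr15:74516196-74589465) but not to its lower end. It may therefore not lie at the main start of Adgrb1. At the other end, 226 long genes held no peak, the longest being Malrd1 (729 kb), Skint5, Skint6 and Mageb18. Among long genes with at least 1 peak, named after their values were seen, the lowest were Gm29825, Dach2, Tafa4 and Il1rapl1. Il1rapl1, a synaptic adhesion gene of the X chromosome, is 1375 kb long and held 3 peaks, 0.0030 CPM per kb of gene, although its start peak had 4.82 ± 1.65 CPM per kb.

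Pan-neuronal genes stood above the typical gene at their starts. All 15 had a start peak, with a median level of 6.45 CPM per kb, above the all-gene median in 8 of 8 libraries. An annotated start was available for 8 of the 15, and either gene end was used for the rest. The all-gene median of 4.54 counts genes without a start peak as 0, and genes with one had a median of 5.93. Syt1, the calcium sensor of vesicle release, ran from 9.82 in animal 8 over a median of 11.3 to 17.7 in animal 45. Nefl, the light neurofilament, ran from 7.21 over 8.72 to 14.3, and Map2, a dendritic microtubule protein, from 7.12 over 7.91 to 11.1. In all 3, animal 45 was the highest. The lowest were Tubb3, a neuronal tubulin (5.71 ± 0.40), Celf4, an RNA-binding protein (5.37 ± 0.55), and Gap43, a protein of growing axons (4.11 ± 0.95).

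Of the 15 genes of excitatory neurons, 14 had a start peak, with a list median of 5.86 CPM per kb, above all genes in 8 of 8 libraries. The 14 with a start peak had a median of 5.94, level with the 5.93 of all genes that had one. Zbtb20, a transcription factor needed for the identity of hippocampal pyramidal neurons, was far ahead. Its start peak (chr16:42874543-42877103) ran from 26.0 CPM per kb in animal 49 over a median of 27.2 to 44.5 in animal 45, and its level of 29.6 ± 6.16 was above that of 99.9% of genes. Nr3c2, the mineralocorticoid receptor, followed with 9.06, 9.40 and 13.7 as lowest, median and highest, and Slc17a7, the vesicular glutamate transporter VGLUT1, with 7.38, 7.57 and 10.4. The lowest with a peak were Tbr1 (5.19 ± 0.81), Etv1 (4.55 ± 0.67) and Prox1, the marker of dentate granule cells (3.88 ± 0.63).

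Genes of inhibitory neurons, a small part of hippocampal cells, had a median of 3.23 CPM per kb, below all genes in 8 of 8 libraries and below the excitatory list in 8 of 8. Start peaks were present for 13 of 15. Calb2, the gene of calretinin, was the highest with 4.10 to 9.09 CPM per kb (median 5.50), followed by Gad1, a GABA-synthesizing enzyme (4.17 ± 0.32), and the homeobox gene Dlx5 (4.03 ± 0.38). Gad2, the second such enzyme (2.69 ± 0.58), Npy (2.52 ± 0.31) and Lhx6 (2.41 ± 0.26) were the lowest. Sst and Vip, the peptides that name 2 interneuron classes, had no start peak and no peak elsewhere in the gene.

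The lists of macroglia, oligodendrocytes and astrocytes, lay between the excitatory and the inhibitory list. All 15 oligodendrocyte genes had a start peak, with a median of 4.30 CPM per kb, above all genes in 1 of 8 libraries. Mag, a myelin adhesion protein, was the most variable, from 3.65 over 4.88 to 8.67 CPM per kb, on a peak of 428 bp. Mbp, myelin basic protein, was steadier (4.94 ± 0.25), as was Cnp (4.81 ± 0.36), and Ermn (3.45 ± 0.63), Nkx6-2 (3.37 ± 0.39) and Opalin (2.27 ± 0.42) were the lowest. Of 15 astrocyte genes 13 had a start peak and the median was 4.20, above all genes in 1 of 8 libraries. Id4 led (8.20 ± 1.81), before the glutamate transporter Slc1a2 (7.55 ± 0.87) and glutamine synthetase, Glul (6.37 ± 0.96). S100b (3.32 ± 0.40), Fgfr3 (3.12 ± 0.41) and Gjb6 (2.61 ± 0.56) were the lowest, and Aqp4 and Gja1 had no start peak. The astrocyte and oligodendrocyte medians did not keep an order, with astrocytes above in 3 of 8 libraries.

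Precursors of oligodendrocytes had a median of 3.50 CPM per kb over 8 genes, 7 with a start peak, led by Ptprz1 (5.42 ± 0.67) and Gpr17 (4.51 ± 0.93). Lhfpl3 (3.44 ± 0.57), Neu4 (2.96 ± 0.42) and Cspg4 (2.49 ± 0.40) were the lowest with a peak. Pdgfra, the receptor that defines these cells, had none at its start and 6 peaks along the gene. Of 15 microglial genes 12 had a start peak, with a median of 3.02 CPM per kb, below all genes in 8 of 8 libraries. The transcription factors Sall1 (6.77 ± 1.64) and Irf8 (5.76 ± 1.67) were the highest. Cx3cr1, the fractalkine receptor (2.92 ± 0.59), Aif1 (2.81 ± 0.36) and Siglech (2.27 ± 0.52) were the lowest. P2ry12, Itgam and Trem2 had no start peak, though 15 peaks lay elsewhere in P2ry12.

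Vessel genes were the lowest of the cell type lists, with 8 of 14 at a start peak and a median of 2.04 CPM per kb, below the microglial list in 8 of 8 libraries. Vtn (5.70 ± 0.69) shared its wide peak with 2 other genes, and Pdgfrb, a receptor of pericytes, also shared its peak (3.81 ± 0.43), while Kdr, a VEGF receptor, had 3.29 ± 0.44. Foxf2 (2.27 ± 0.60), Tbx18 (2.15 ± 0.36) and Flt1 (1.93 ± 0.25) were the lowest with a peak. Pecam1, Tek, Slco1c1, Abcb1a, Rgs5 and Acta2 had none.

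Markers of choroid plexus and ependyma and of other brain regions (called neighbouring regions here) were also measured. A start peak in a bulk library does not tell which tissue it came from, so tissue carried along in dissection was not tested. The list of choroid plexus and ependyma had 6 of 10 genes with a start peak and a median of 2.66 CPM per kb. Foxj1, a factor of ciliated cells, led with 5.51 ± 0.29, before Kl (3.41 ± 0.60) and Enpp2 (3.39 ± 0.85), and Prlr (2.82 ± 0.48), Kcne2 (2.80 ± 0.61) and Aqp1 (2.53 ± 0.31) were lower. Ttr, Folr1, Clic6 and Otx2, its defining genes, had no start peak, though 4 peaks lay elsewhere in Ttr. Of 15 markers of other brain regions 9 had a start peak, with a median of 2.86. Tcf7l2, a thalamic factor (4.88 ± 1.10), Hcrt (4.47 ± 0.33, on a shared peak) and Drd1 (4.14 ± 0.45) led. Drd2 (2.86 ± 0.71), Adora2a (2.86 ± 0.34) and Zic1 (1.61 ± 0.33) were the lowest with a peak, and Gabra6, Pmch, Th, Slc6a3, En1 and Pax2 had none. All 10 genes of a ventral hippocampal list had a start peak, with a median of 3.50 CPM per kb. Htr2c, a serotonin receptor (4.57 ± 1.20), Calb1 (4.49 ± 1.03) and Ociad2 (4.12 ± 0.27) were at its top and Trhr (2.86 ± 0.60), Nr2f2 (2.82 ± 0.70) and Dlk1 (2.48 ± 0.46) at its bottom. Of 6 dorsal genes 5 had one and the median was 3.43, led by Prss12 (5.56 ± 0.57), Ccn3 (4.79 ± 0.77) and Lct (3.58 ± 0.82). Tdo2 (3.27 ± 0.64) and Gpr101 (2.61 ± 0.60) were lower, and Spink8 had none. The ventral median was above the dorsal in 6 of 8 libraries, so the lists were not separated.

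Housekeeping genes, used by every cell, marked the upper end. All 15 had a start peak, with a median of 7.57 CPM per kb, above every other list in 8 of 8 libraries. Of the 15, 11 had an annotated start. Eef1a1, the translation elongation factor, ran from 10.8 over a median of 12.04 to 18.4 CPM per kb, Polr2a, the large subunit of RNA polymerase II, from 9.50 over 10.7 to 16.4, and Actb from 9.51 over 10.5 to 14.7, with animal 45 the highest in all 3. Ppia (6.83 ± 0.50), B2m (5.26 ± 0.69) and Ywhaz (3.56 ± 0.31) were the lowest.

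Genes of other tissues marked the lower end, though not without exceptions. Of 30 effector genes of other tissues 14 had a start peak, and the median was 0. Among the 16 without were Alb and Afp of liver, Ins2 and Gcg of the pancreatic islet, the T cell gene Cd3e, the milk protein genes Csn2 and Csn3, and Prm1 and Tnp1 of sperm. Krt14, Flg, Cyp2e1, Cyp3a11, Umod and Hbb-bt were among them too. Apoa2 (6.55 ± 0.63 CPM per kb, on a peak shared with another gene), Acta1 (4.88 ± 0.25) and Apoa1 (4.83 ± 0.54) were the highest, and Myl7 (2.72 ± 0.45), Ckm (2.41 ± 0.47) and Prm2 (2.17 ± 0.56) the lowest with a peak. Of 25 developmental regulators 10 had a start peak, and these were low. Myod1 had 3.65 ± 0.81 CPM per kb and Myog 3.37 ± 0.41, and Lmx1b (2.01 ± 0.27), Barx1 (1.98 ± 0.40) and Sox17 (1.87 ± 0.49) were the lowest. Hoxa9, Hoxd13, Hoxc8, Hoxb9, Pax7, Tbx5, Foxa2, Pdx1, Hnf4a, Gata4, Gata1, Tbx4, Evx1 and Cdx2 were among the 15 with none. Tubb3, Slc17a7, Camk2a, Polr2a, Ppia, Zic1 and Prm2 also shared their start peaks with other genes. Over all lists, 57 of 223 genes had no start peak, and 22 of these held a peak elsewhere in the gene.

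**Figure D4:**
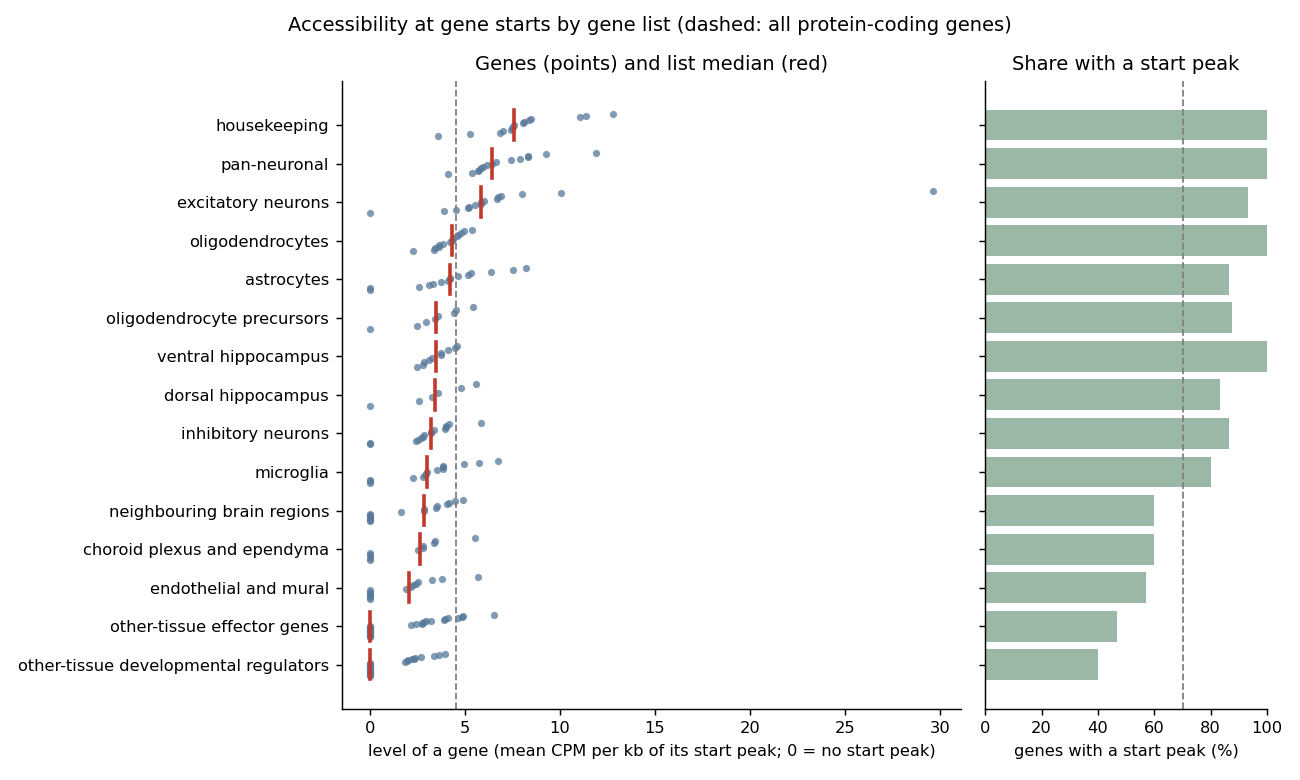
Left, level of each gene (mean CPM per kb of its start peak, x axis; 0 where there is none) by list (y axis), with the list median in red and the median of all protein-coding genes, 4.54, dashed. Right, percent of the genes of a list with a start peak, where all protein-coding genes stand at 70.4%.

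The order of the lists held best at its ends. Housekeeping, then pan-neuronal, then excitatory genes kept this order in 8 of 8 libraries, and all 3 were above every glial list in 8 of 8. The lists were chosen with earlier results of these data known, so these counts describe the order and do not test it. In the middle, inhibitory genes were above microglial genes in 2 of 8 libraries, although the median of gene means was higher for the inhibitory list (3.23 against 3.02), and choroid plexus genes above those of neighbouring regions in 4 of 8. Summed along the gene and not at its start, astrocyte genes moved from the 46.8th to the 80.1st percentile of all genes and pan-neuronal genes from the 70.0th to the 83.6th, so the place of the astrocyte list depends on what is counted. Animal 45 was the highest library for 100 of the 166 list genes with a start peak and the lowest for 18. Without it, no median percentile of a list among all genes moved by over 1 SD of its library values. That SD includes animal 45, and the list medians in CPM per kb were not compared in this way. The counts of genes with a start peak rest on the fixed peak set and cannot move.

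Gene families drawn by symbol showed the same range on a larger scale. Start peaks were present for 75 of 78 ribosomal protein genes (median 6.34 CPM per kb, Rps29 the highest at 17.5 ± 3.50), 38 of 39 proteasome subunits (6.67, Psma2 at 16.1 ± 2.93) and 52 of 58 histone genes (7.78, H2ac18 and H3c14 at 14.5 ± 2.49 on a shared peak). Of 367 zinc finger proteins named Zfp, 332 had one (5.97, Zfp78 at 27.2 ± 6.46). The exceptions there included Psma8, a testis subunit, and the copies Rpl32l and Rpl39l. All 28 glutamate receptor genes by symbol had a start peak (median 5.35), above all genes in 8 of 8 libraries. The all-gene median also counts genes without a start peak. Against genes with a start peak, whose median was 5.93 CPM per kb, the median of the glutamate receptor genes was lower. Grin2b, an NMDA receptor subunit, was the highest, from 7.62 over 8.82 to 13.5 CPM per kb, and held 292 peaks along its 460 kb. Grm6, a receptor of retinal bipolar cells, was the lowest (2.62 ± 0.62). Potassium channels (80 of 94, median 4.56, Kcnj9 at 9.23 ± 0.59) and cadherins (18 of 23, median 4.31, Cdh2 at 9.25 ± 1.48) were near all genes. So were GABA-A receptors (12 of 16, median 4.34), where Gabrq and Gabrp were among those with none.

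In other families, few or no members had a start peak, which says only that no region of the table lay there. Start peaks were present for 25 of 1106 odorant receptors, 4 of 353 vomeronasal receptors, 3 of 38 taste receptors, 26 of 112 genes with a Krt symbol (Krtcap2, no keratin, the highest at 7.16 ± 0.58) and 0 of 71 defensins. Of 39 Hox genes 2 had one: Hoxb8, with 5.38 ± 1.67 CPM per kb on a peak of 221 bp, and Hoxc6, with 2.62 ± 0.60 on a peak of 278 bp. In 34 of the 39, no peak lay in the gene or within 1 kb. Vmn1r4 (16.1 ± 3.70) was the highest vomeronasal gene, on a peak shared with the start of another gene. Olfr822 was the highest odorant receptor, with 4.24 CPM per kb in animal 45 and 10.1 to 13.7 in the other libraries.

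MicroRNA genes added short regulatory RNAs to this picture, and 8 mature strands are shown because their loci were clear cases with and without a peak in a list drawn up after the count table had been opened. They are the RefSeq sequences, 5′ to 3′, with the seed (bases 2 to 8), which pairs with target messages, in capitals.
miR-9-5p: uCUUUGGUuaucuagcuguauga
miR-132-3p: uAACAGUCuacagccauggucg
miR-212-3p: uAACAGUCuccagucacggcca
miR-219a-5p: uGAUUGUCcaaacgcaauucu
miR-338-3p: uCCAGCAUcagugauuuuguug
miR-223-3p: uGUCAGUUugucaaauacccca
miR-133b-3p: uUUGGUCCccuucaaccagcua
miR-206-3p: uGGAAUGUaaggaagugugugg

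MiR-132 and miR-212 share the seed and are made from neighbouring hairpins in a single peak. That peak (chr11:75161432-75197269) is 35838 bp wide and had 7.05 ± 0.65 CPM per kb. The neural miR-9 comes from 3 loci. Mir9-1 lay in a peak of 6.68 ± 0.51 CPM per kb (21446 bp wide) and Mir9-3 in one of 5.89 ± 0.52 (11833 bp). The densest peak within 1 kb of Mir9-2 lay beside its hairpin (chr13:83739023-83740541) and ran from 7.54 CPM per kb to 9.76 in 7 libraries and 16.6 in animal 45. Among the oligodendrocyte miRNAs, Mir219a-1 lay in a peak of 7.90 ± 0.63 (22213 bp wide) and Mir338 in one of 5.91 ± 0.28 (48640 bp). The densest peak near Mir219a-2 had 4.82 ± 0.57. In such wide peaks the density is that of the whole region and not of the hairpin alone. Mir137 (3.00 ± 0.53), Mir138-1 (2.46 ± 0.27) and Mir138-2 (3.93 ± 0.18), all neuronal, were in peaks of lower density. No peak lay within 1 kb of Mir223 and Mir155, of myeloid and immune cells, or of Mir133b and Mir206, of muscle. The heart and islet genes Mir208a (2.33 ± 0.20) and Mir375 (2.55 ± 0.18) had peaks below the median of all peaks, as had the neuronal Mir138-1. The Mir208a hairpin lay outside its peak.

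The widest spread between these libraries lay at sex-linked loci. Among peaks with a mean of at least 100 counts, the 5 with the highest coefficient of variation (96.0% to 107%) lay in Firre and 4933407K13Rik on the X chromosome and on the Y chromosome. Firre makes a long RNA that anchors the inactive X chromosome. Its peaks summed to 50.9 ± 17.7 CPM in females and 9.58 ± 0.65 in males, and those of 4933407K13Rik to 77.6 ± 22.2 and 17.6 ± 0.91. Xist, the RNA that silences 1 X chromosome, had 5.83 ± 0.62 and 2.07 ± 0.415 CPM. At these 3 loci all females were above all males. Animal 45 was the highest female at each, with 77.4 CPM at Firre against 41.4 to 43.3 in the others. Y-linked peaks near Eif2s3y and Uty held 0 counts in all 4 females, which allows up to 3 counts per library, and 0.83 to 2.50 CPM per peak in the males. The Y peak among the 5 most variable held 0 to 1.06 CPM in females and 5.74 to 9.10 in males. Over the whole Y chromosome, with 28 peaks, the share of counts was 0.0389% ± 0.0102 in females and 0.0426% ± 0.0106 in males, so that total did not separate the sexes. At Xist, Firre, 4933407K13Rik and these 4 Y peaks, females and males did not overlap. The X chromosome had 2.10 peaks per protein-coding gene, against 7.16 to 19.0 on the autosomes, and held 0.85% ± 0.08 of the counts in females and 0.75% ± 0.02 in males. In animal 45 this share was 0.964%, against 0.791% to 0.834% in the other females. The most even peaks, with a coefficient of variation of 1.51% to 1.95%, lay at F12, Cabin1, Kansl2, Sec14l1 and Cstad. F12, for example, held 27.9 to 29.1 CPM in the 8 libraries.

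**Figure D5:**
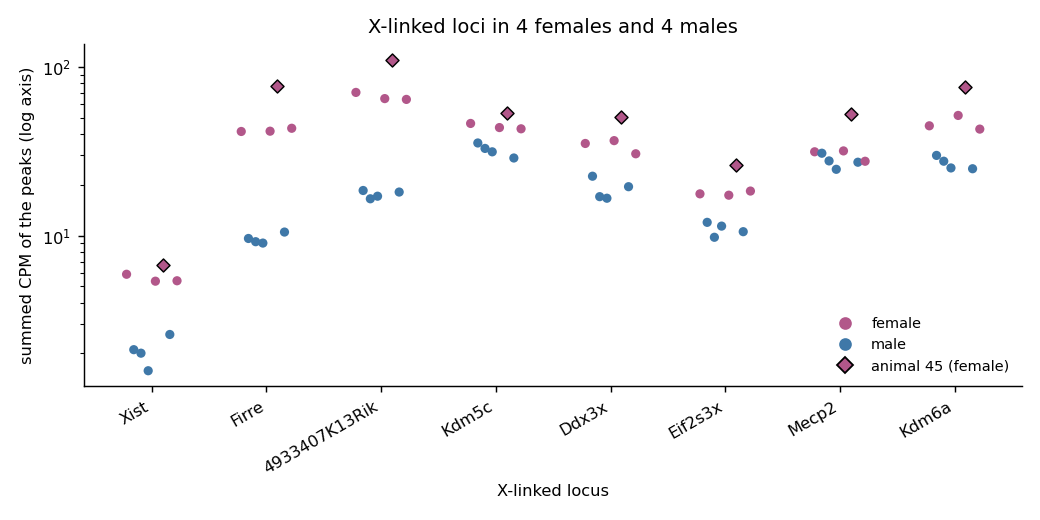
Summed CPM of the peaks (y axis, log scale) at 8 X-linked loci (x axis) in the 4 females and 4 males, 1 point per library and animal 45 as a diamond. At Xist, Firre and 4933407K13Rik every female lies above every male.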

How the data were processed

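ATAC-seq counts of 8 libraries (handled mice, 0 min, 28659410 to 46120049 counts each) were taken from a deposited table of whole-number counts per peak. Per the submitters' processing notes, the steps before it used Genrich 0.6.1, Picard, Bowtie2 and Trimmomatic on GRCm38. How regions were combined and what was counted are not given in the sources used here, and 2 columns matching no sample were not used. TMM factors came from edgeR 4.0.16, with DESeq2 1.42.0 size factors and total counts as alternatives. Genes were the 21887 protein-coding RefSeq genes on GRCm38.p6. Starts came from RefSeq promoter windows and the gene's end on that strand for 17492 genes, and from either end for 4395. Classes of peaks were compared within each library by exact sign-flip tests over 8 libraries, with Benjamini-Hochberg adjustment, at 0.05, and the code was tested on simulated data. Lists and families are described without tests. Members and lists were chosen with earlier results of these data known. Named items are the 12 highest peaks by CPM and by CPM per kb and the 6 lowest of each (at most 1 per nearest gene), the 12 highest gene starts, the 8 highest and lowest genes of 50 kb or more, the 3 highest and 3 lowest genes of each list with all lacking a start peak, the ends of each family, and the 5 highest and lowest peaks by variation. Intervals for 0 counts cover counting error only. With no genome, peak sequences and GC content of peaks were not analysed here. Some of these named items are not reported here.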

Additional observations from a re-analysis of the deposited data

Results flagged for a closer look

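Of 35 values checked for a library far from the other 7, 19 stood apart, and in all 19 the library was animal 45. Chance would mark about 1 in 20 values, but these values come from the same libraries and are not independent. In animal 45, 40.4% of counts lay at gene starts, 0.513% in the 100 densest peaks and 0.964% on the X chromosome, and its median Spearman correlation with the others was 0.885. Its median peak had 2.60 CPM per kb. By location, its medians were 4.95 CPM per kb at gene starts, 2.43 inside genes, 2.31 within 10 kb, 3.18 at 10 to 100 kb and 4.34 beyond. By width, they were 2.52 under 500 bp, 2.31 from 500 bp, 3.93 from 2000 bp and 4.76 from 5000 bp to under 10000 bp. Its list medians stood apart for pan-neuronal genes (8.48 CPM per kb), excitatory genes (7.96), housekeeping genes (10.8), dorsal hippocampal genes (4.94) and all protein-coding genes (5.41). What made this library differ was not tested.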

How the results depend on the processing

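No paired analysis was possible because no groups of samples were tested against each other and each animal number occurs once among the 8 libraries. Classes of peaks were compared within each library, and values of females and males are given without a test. Leaving out animal 45, scaling by total count and DESeq2 size factors kept each of 71 values on its side of the threshold and within the spread between libraries. That spread includes animal 45, and for the lists the values were counts and percentiles. Differences between classes within a library cannot move with scaling. The median peak had 2.69 CPM per kb in females alone and 2.85 in males alone. The difference of gene starts from peaks over 100 kb away turned to -0.20 (log2) within widths of 500 bp to under 1000 bp and -0.14 with a start window of 5 kb. Counted per peak, the other 3 classes turned to 0.17 (inside genes), 0.18 (within 10 kb) and 0.17 (10 to 100 kb). The step from under 500 bp to the next width class turned to 0.0092 in peaks over 100 kb from a gene. The cause was not tested, beyond the widths given with these classes.

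Median percentiles of the lists among all genes moved as follows. With a start window of 5 kb they became 61.8 (excitatory), 34.2 (inhibitory), 43.0 (astrocytes), 43.8 (oligodendrocytes), 45.6 (precursors), 38.9 (microglia), 25.7 (vessels), 29.3 (neighbouring regions), 29.3 (effector genes), 25.3 (developmental regulators) and 37.8 (ventral). By CPM per peak they became 78.9 (pan-neuronal), 76.0 (excitatory), 52.9 (astrocytes), 38.7 (oligodendrocytes), 44.1 (precursors), 32.4 (vessels) and 38.6 (ventral). Summed per kb of gene they became 83.6 (pan-neuronal), 75.5 (excitatory), 80.1 (astrocytes), 61.5 (oligodendrocytes), 56.9 (precursors), 47.9 (microglia), 35.6 (vessels), 36.5 (choroid plexus), 30.9 (neighbouring regions), 89.6 (housekeeping), 20.8 (effector genes), 25.9 (developmental regulators), 30.9 (ventral) and 58.4 (dorsal). The median peak held 55.75 counts per library, and differences between single peaks were not tested.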
